A study of Mus musculus with 16 samples.

Results

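The comparison described here was LMAN1 KO against WT in female murine tracheal epithelial cell (MTEC) cultures given house dust mite (HDM) extract. It used 4 of the 16 RNA-seq libraries of the series, 2 biological replicates labelled WT and 2 labelled LMAN1 KO, and its members were chosen by their labels alone. MTECs are primary cells from mouse tracheas, grown at an air-liquid interface so that basal, secretory and ciliated cells form. All 4 cultures received 20 ug/ml HDM extract overnight, the KO animals were on a C57BL/6J background, and the WT animals were littermates from heterozygous breeding. The other 12 libraries were female naive cultures of both genotypes and male naive and HDM-treated cultures of both genotypes, again 2 per group. How many animals gave each culture is not given in the sources used here, and the p-values below measure the spread between these cultures. The series asks how loss of LMAN1 alters the response of airway epithelium to HDM in each sex.

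LMAN1 (ERGIC-53) is a mannose-binding lectin that cycles between the endoplasmic reticulum and the Golgi and carries selected glycoproteins forward, with MCFD2 as its partner for coagulation factors. The tracheal epithelium is renewed by basal cells, which express keratin 5 and the transcription factor p63. Basal cells give rise to club cells, rich in secreted proteins and detoxifying enzymes, and to ciliated and goblet cells. HDM carries proteases, chitin and microbial products that airway epithelial cells sense through pattern recognition and protease-activated receptors.

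Lman1 itself was read first, as the check of the labels. In CPM, the counts of a gene per 1000000 counts of its library after TMM scaling of library sizes, Lman1 stood at 117 and 101 in the female HDM-treated WT libraries and at 66.6 and 78.1 in those labelled KO. In naive female cultures it stood at 123 and 123 in WT and at 12.8 and 12.8 in KO. The female HDM-treated libraries labelled KO thus held Lman1 transcript below both of their WT counterparts and well above both naive KO libraries, and the gene did not pass the test (log2 fold change -0.59, SE 0.44, adjusted p = 0.331, edgeR quasi-likelihood test with Benjamini-Hochberg adjustment over all genes). The KO-to-WT difference of Lman1 was smaller under HDM than in naive cultures, with an interaction of 2.67 on the log2 scale (SE 0.64, adjusted p = 0.0238). In males, the KO-labelled libraries held 65 and 66 CPM under HDM and 14.2 and 63.4 CPM when naive, so intermediate values were not limited to the female HDM-treated pair. What part of the gene the KO allele lacks is not given in the sources used here, and the libraries are called KO-labelled below. Mcfd2, the gene of the LMAN1 partner, stood at 77.9 and 90.1 CPM in WT and 58 and 58.1 in KO-labelled libraries (log2 fold change -0.53, SE 0.09, adjusted p = 0.00176).

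The 4 libraries held 24842240 and 21860698 counts in WT and 24861559 and 27380220 counts in KO-labelled cultures, within the range of 21860698 to 43442188 over all 16. Mitochondrially encoded genes took 2.04% and 2.5% of the counts in WT and 1.39% and 1.36% in KO-labelled libraries, against 0.517% to 0.675% in the 4 naive female libraries. A count of 3 in 1 library, the floor used here for a gene not seen, corresponded to 0.107 to 0.142 CPM in the 4 libraries. The defining epithelial genes were present throughout, since the lowest of the 4 libraries held 628 CPM of Krt5 and 356 CPM of Epcam. Epcam did not pass the test without WT replicate 2 or KO-labelled replicate 2 (log2 fold change -0.59 to -0.57).

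Of 15993 genes tested, 4669 (29.2%) were called at an adjusted p under 0.05, of which 2385 (14.9% of the tested genes) were higher and 2284 (14.3%) were lower in the KO-labelled libraries. The groups did not overlap in 4668 of these 4669 genes, as in 10923 (68.3%) of all genes tested. A change of at least 2-fold was seen in 651 of the higher and 764 of the lower genes, and the median log2 fold change over all tested genes was 0.004. Of the calls, 51.1% were higher, which became 61.7% when libraries were scaled on their totals and 67.6% when they were scaled on epithelial genes shared across airway cell types. No called gene changed sign under any scaling. Without WT replicate 2 the count was 1701, and without KO-labelled replicate 2 it was 2077.

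**Figure D1:**
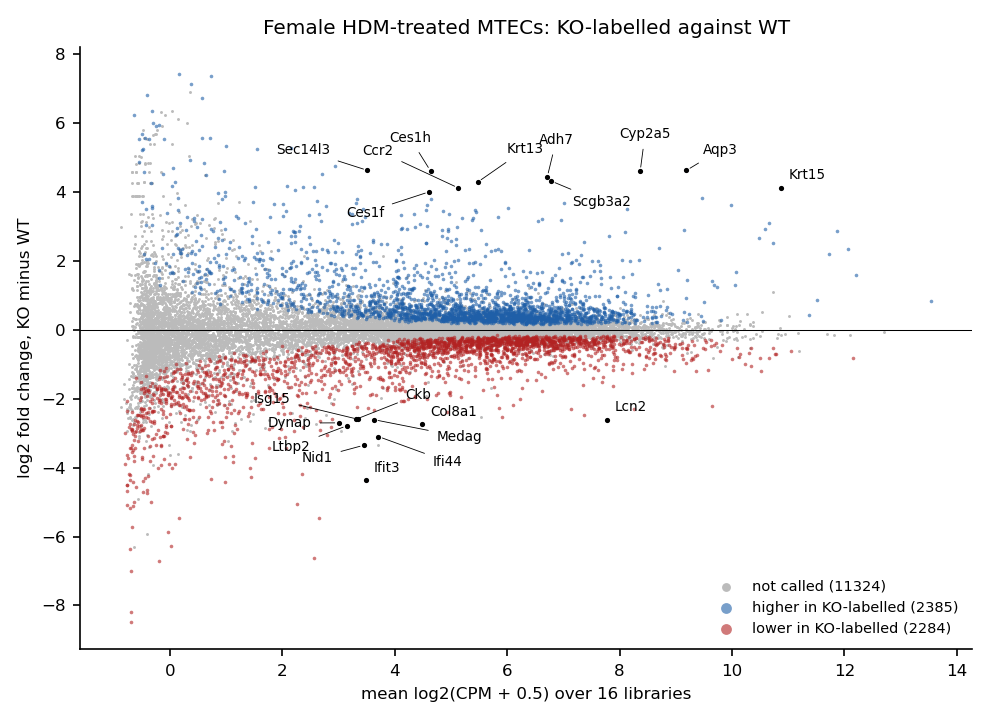
Log2 fold change (KO-labelled minus WT, y axis) against mean log2(CPM + 0.5) over the 16 libraries (x axis) for the 15993 genes tested in female HDM-treated MTECs. Each point is a gene, with 2385 called higher and 2284 called lower, and the 20 named genes are those with the widest changes in each direction among well-expressed genes.

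Among genes whose log2 CPM averaged 3 or more, the 10 widest differences upward in KO-labelled libraries included keratins, a water channel and oxidising and ester-cleaving enzymes. Aqp3, a water and glycerol channel of basal cells (chr4:41092722-41098183), stood at 31.2 and 30.9 CPM in WT and 890.5 and 645 CPM in KO-labelled libraries (log2 fold change 4.63, SE 0.2, adjusted p = 3.3e-07). Krt15, a basal cell keratin (chr11:100131758-100135928), stood at 179 and 95.9 against 2971 and 1836 CPM (log2 fold change 4.13, SE 0.3, adjusted p = 8.15e-06). The naive female libraries ranged from 837 to 989 CPM for Aqp3 and from 3198 to 3628 CPM for Krt15, so KO-labelled replicate 1 lay within or near that range, replicate 2 lay below it and both WT libraries lay far below. Cyp2a5, a cytochrome P450 that oxidises coumarin and nicotine (chr7:26835305-26843548), stood at 10.4 and 13.5 against 365 and 216 CPM, and its reads may be shared with its near-copy Cyp2a4. Adh7, a retinol-oxidising alcohol dehydrogenase (chr3:138217760-138233382), stood at 8.41 and 6.63 against 196 and 131 CPM. The club cell secretoglobin Scgb3a2 stood at 3.25 and 3.32 against 83.2 and 47.9 CPM. These 3 genes were 24.3-fold, 21.7-fold and 20.0-fold higher in KO-labelled libraries. The other 5 genes of this group were Sec14l3, a lipid-binding protein gene, the carboxylesterases Ces1h and Ces1f, the keratin Krt13 and the chemokine receptor Ccr2, with log2 fold changes between 4.01 and 4.63.

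The 10 widest differences downward included the interferon-stimulated Ifit3, Ifi44 and Isg15 and the matrix genes Nid1, Ltbp2 and Col8a1. Ifit3, an interferon-induced antiviral protein gene (chr19:34583531-34588731), stood at 107 and 86.7 CPM in WT and 5 and 4.37 CPM in KO-labelled libraries (log2 fold change -4.37, SE 0.47, adjusted p = 0.000121). Ifi44 (chr3:151730922-151749960) stood at 52.5 and 34.8 against 6.62 and 3.62 CPM and Isg15 (chr4:156199424-156200818) at 44.6 and 30.3 against 5.97 and 6.41 CPM. All 3 were within or below the naive female range in the KO-labelled libraries and above every naive female library in WT. Nid1, the basement membrane linker nidogen (chr13:13437551-13512269), stood at 125 and 339.7 against 25.3 and 20.3 CPM (log2 fold change -3.35, SE 0.85, adjusted p = 0.0129), and WT replicate 2 was the higher of the WT pair. Ltbp2, a matrix protein that binds fibrillin (chr12:84783212-84876532), stood at 44.2 and 119.9 against 13.2 and 10.6 CPM. Col8a1, a short-chain collagen (chr16:57624258-57754737), stood at 301 and 455 against 57.1 and 56.6 CPM. Lcn2, a siderophore-binding antimicrobial protein (chr2:32384633-32388252), stood at 281 and 672 against 62.6 and 94 CPM. The remaining 3 genes were Dynap, Medag and the creatine kinase Ckb, with log2 fold changes of -2.7, -2.61 and -2.6. Nid1 and Ltbp2 did not pass the test without WT replicate 2, KO-labelled replicate 1 or KO-labelled replicate 2 (log2 fold change -3.53 to -2.45 and -2.96 to -1.89).

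The position of the groups among the 16 libraries differed between WT and KO-labelled cultures. In 3867 of the 4669 called genes (82.8%), both female HDM-treated WT libraries lay outside the range of the other 14 libraries, whereas both KO-labelled libraries did so in 435 (9.32%). Over all genes tested these shares were 40.2% and 6.49%. In 1745 called genes (37.4%) the KO-labelled libraries lay strictly between the WT libraries and the 4 naive female libraries, and in 604 (12.9%) WT lay outside the naive range with both KO-labelled libraries inside it. The corresponding shares of all genes tested were 21.4% and 8.3%, and called genes were selected on these same libraries.

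Basal cell markers were higher in KO-labelled libraries. Of 14 markers tested, 9 were called higher and 0 lower, with a median log2 fold change of 2.1 against 0.004 over all genes. Trp63, the gene of p63, stood at 64.2 and 36.7 CPM in WT and 217 and 189.9 CPM in KO-labelled libraries (log2 fold change 2.01, SE 0.2, adjusted p = 8.48e-05), and the naive female libraries ranged from 202 to 233 CPM. Ngfr, a neurotrophin receptor on the basal cell surface, stood at 12.4 and 9.28 against 103 and 92.9 CPM (log2 fold change 3.17, SE 0.16, adjusted p = 9.23e-07). Krt5 stood at 1702 and 628 against 5868 and 4784 CPM (log2 fold change 2.19, SE 0.35, adjusted p = 0.00113), so WT replicate 2 was the lowest, and the naive female libraries ranged from 3688 to 4913 CPM. Krt14 (2017 and 1199 against 3599 and 3245 CPM, adjusted p = 0.114) and Krt17 (1997 and 1554 against 2438 and 2478 CPM, adjusted p = 0.233), which mark basal cells and also stressed or wounded epithelium, did not pass the test. Summed over the list, markers reached 6361 and 3875 CPM in WT, 16719 and 13851 CPM in KO-labelled and 12517 and 13817 CPM in naive WT cultures. In bulk samples, fewer cells of a type and less RNA per cell cannot be told apart.

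Club cell markers followed with 10 of 14 tested members higher and 0 lower, at a median log2 fold change of 2.43. Aldh1a1, a retinaldehyde dehydrogenase, stood at 42.3 and 40.1 CPM in WT and 647 and 524 CPM in KO-labelled libraries (log2 fold change 3.83, SE 0.13, adjusted p = 5.47e-08). Cbr2, a lung carbonyl reductase, stood at 253 and 226 against 1919 and 1599 CPM (log2 fold change 2.87, SE 0.26, adjusted p = 3.88e-05). Both stayed below their naive levels in KO-labelled cultures, where naive WT libraries held 1310.5 and 1261 CPM of Aldh1a1 and 6373 and 4819.6 CPM of Cbr2. Cyp2f2, the abundant P450 of club cells, differed less, at 4645 and 3754 against 7770.4 and 7145 CPM (log2 fold change 0.83, SE 0.18, adjusted p = 0.00648). The antimicrobial lectin Reg3g stood at 46.6 and 72.4 against 365 and 310.3 CPM and at 4026 and 3165 CPM in naive WT. Scgb1a1, the classical club cell secretoglobin, stood at 0.125 and 0.0474 CPM in WT, at or under the floor, and at 2.42 and 0.501 CPM in KO-labelled libraries (adjusted p = 0.0142), and it was low in naive WT too (2.18 and 3.75 CPM). The list summed to 6242 and 4954 CPM in WT, 16221 and 13999.7 CPM in KO-labelled and 34392 and 28032 CPM in naive WT libraries, and 6 members were higher without WT replicate 2. Cyp2f2 did not pass the test without WT replicate 2 (log2 fold change 0.68). Scgb1a1 did not pass the test without WT replicate 2 or KO-labelled replicate 1 (log2 fold change 2.44 to 3.49).

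Goblet markers summed to 21.4 and 23.8 CPM in WT and 48.3 and 42.2 CPM in KO-labelled libraries, and ciliated markers to 93.8 and 102 and 69.8 and 79.6 CPM. Of 11 goblet markers tested, 4 were higher (2 without WT replicate 2) and 1 was lower. Agr2, a disulfide isomerase needed for mucin folding, stood at 1.5 and 1.85 against 8.88 and 8.2 CPM (log2 fold change 2.36, SE 0.33, adjusted p = 0.000567), below the 76.5 and 78.8 CPM of naive WT. The mucins did not pass the test, with Muc5b at 1.58 and 1.85 against 2.5 and 3.87 CPM (adjusted p = 0.353) and Muc5ac at 0.416 and 0.189 against 0.525 and 0.609 CPM (adjusted p = 0.172). Of 16 ciliated markers, 0 were called in either direction with edgeR, 2 had an unadjusted p under 0.05 and DESeq2 called 1 higher and 0 lower, although their median log2 fold change was 1.5. Foxj1, the master regulator of motile cilia, stood at 79.1 and 86.6 against 44.8 and 47 CPM (adjusted p = 0.0894), opposite in sign to the list's median. Foxj1 alone made up most of the ciliated sum in each WT and KO-labelled library, so that sum mainly followed Foxj1. Of the 16 ciliated markers, 14 had a positive log2 fold change. In the list of 21 multiciliated cell fate regulators, 8 were higher and 1 was lower, and the higher ones became 2, 5 and 2 without WT replicate 2, KO-labelled replicate 1 and KO-labelled replicate 2. Trp73, the p63 relative that starts multiciliogenesis, stood at 0.375 and 0.332 against 3.75 and 3.4 CPM (log2 fold change 3.32, SE 0.36, adjusted p = 0.000135), and Myb, which acts early in the same programme, stood at 0.957 and 0.71 against 4.2 and 3.9 CPM. Of 48 dynein arm, radial spoke and central pair genes, 3 were higher and 0 lower by edgeR and 10 higher and 0 lower by DESeq2. Myb did not pass the test without WT replicate 1, WT replicate 2, KO-labelled replicate 1 or KO-labelled replicate 2 (log2 fold change 2.08 to 2.51).

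**Figure D2:**
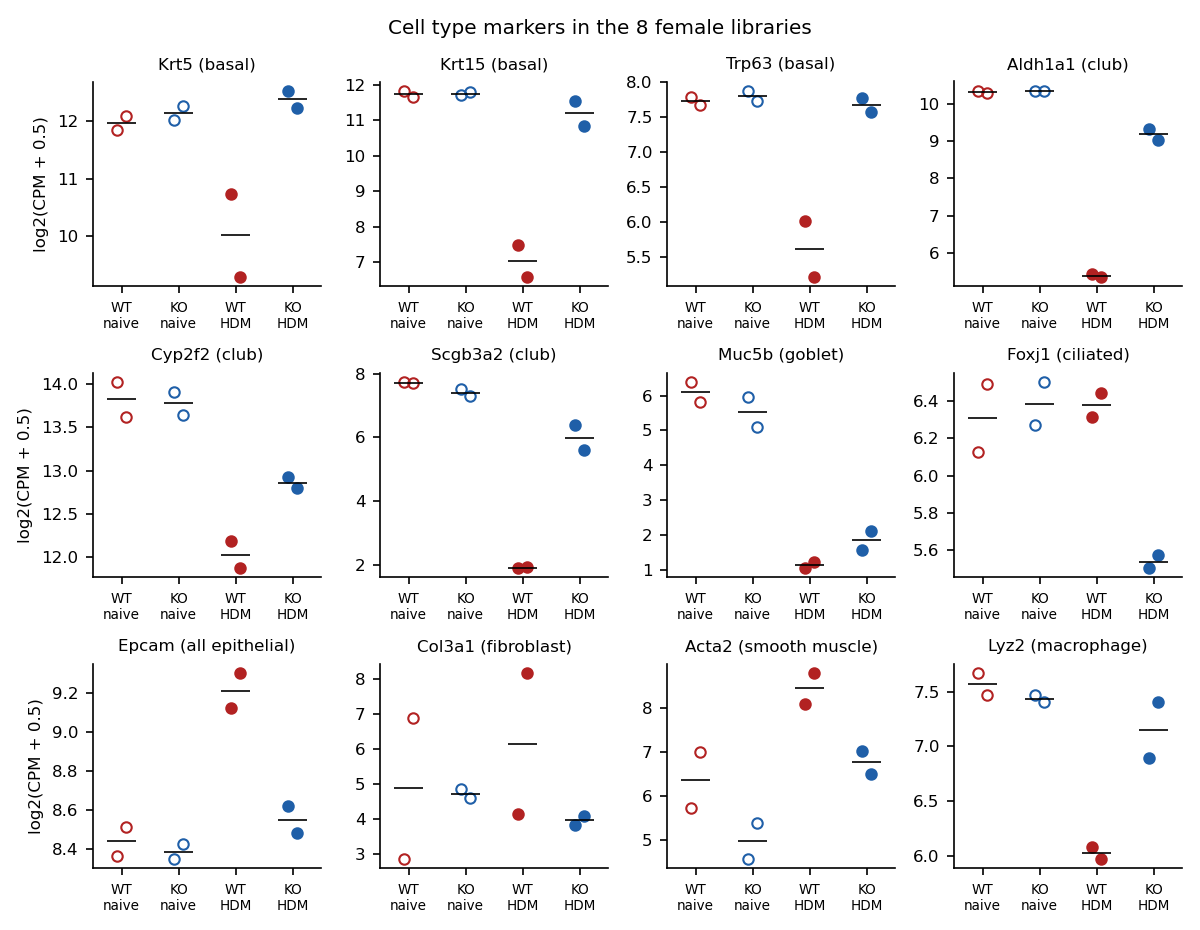
Markers of epithelial and other cell types in the 8 female libraries, as log2(CPM + 0.5) on the y axis, with 2 replicates per group as points and the group mean as a bar (red WT, blue KO-labelled, open naive, filled HDM). Basal and club markers were lowest in the WT HDM pair, and Col3a1 was high in replicate 2 of naive WT and of HDM-treated WT only.

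Detoxifying and retinoid enzymes were mostly higher in KO-labelled libraries. Of 45 conjugation, aldehyde and retinoid enzymes tested, 27 were higher and 4 lower (median log2 fold change 1.3). Without the 4 members that are also cell type markers, 23 of 41 were higher and 4 lower. Leaving out WT replicate 2 gave 17 higher and 1 lower of the 45. Aldh1a7 stood at 6.28 and 7.34 CPM in WT and 68.8 and 55.2 CPM in KO-labelled libraries (log2 fold change 3.19, SE 0.21, adjusted p = 4.11e-06). The aldehyde oxidase Aox3 stood at 14.9 and 12.1 against 79.7 and 78.6 CPM (log2 fold change 2.55, SE 0.29, adjusted p = 0.000163). Both genes had non-overlapping groups and KO-labelled values below the naive ones. Gsta4, a glutathione transferase for lipid peroxidation products, stood at 415 and 266 against 1210.2 and 989.6 CPM, with naive WT at 1261 and 1344 CPM. The lower members moved less, as Aox1 (77.7 and 71.3 against 48.1 and 53.8 CPM, log2 fold change -0.55) and Aldh2 (597 and 699 against 533 and 464 CPM, log2 fold change -0.38) showed. Aldh2 did not pass the test without WT replicate 2 or KO-labelled replicate 2 (log2 fold change -0.28 to -0.26).

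Of 27 cytochrome P450 and related enzymes tested, 11 were higher and 3 lower, and leaving out WT replicate 2 gave 9 and 0. Fmo2, a flavin monooxygenase of lung, stood at 84.9 and 37.8 against 311 and 326 CPM (log2 fold change 2.37, SE 0.29, adjusted p = 0.000272), and Cyp2b10, a target of the xenobiotic receptor CAR, at 1.08 and 0.995 against 13.2 and 7.91 CPM (log2 fold change 3.33, SE 0.34, adjusted p = 9e-05). The KO-labelled values of both lay between WT and naive. Cyp1b1, a target of the aryl hydrocarbon receptor, moved the other way, at 268 and 338 against 133 and 147 CPM (log2 fold change -1.11, SE 0.23, adjusted p = 0.00518). In a list of carboxylesterases that was put together after the values were seen, 9 of 10 tested members were higher and 0 lower, led by Ces1d at 77.6 and 55.8 against 884 and 776 CPM (log2 fold change 3.64, SE 0.18, adjusted p = 5.95e-07). The Ces1 genes are near-copies in 1 cluster, so reads may be split between them, and the list's sum was 170.0 and 133 CPM in WT, 1107 and 939.8 CPM in KO-labelled and 1863 and 1622 CPM in naive WT libraries. Of 33 glutathione and NRF2 target genes, 7 were higher and 4 lower, which became 2 and 2 without WT replicate 2 and 4 and 2 without KO-labelled replicate 2. Leaving out KO-labelled replicate 1 gave 4 higher. Of these 33 genes 33.3% were called, near the 29.2% of all genes, and their median log2 fold change was 0.04. Among them, Prdx6, a peroxiredoxin of lung, stood at 140.2 and 162 against 431 and 375 CPM. The glutathione peroxidases Gpx1 and Gpx4 were lower, with log2 fold changes of -0.68 and -0.72. Cyp1b1 did not pass the test without WT replicate 2 (log2 fold change -0.93).

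Part of the keratin and junction genes were also higher in KO-labelled cultures. The squamous marker list did not rise as a sum, at 6427 and 5028 CPM in WT and 5699 and 5052 CPM in KO-labelled libraries. Of 20 keratins, 10 were higher and 1 was lower. Outside the cell type lists, 4 of 11 keratins were higher. Krt4 stood at 148 and 63.7 against 888 and 676 CPM (log2 fold change 2.88, SE 0.46, adjusted p = 0.00118) and Krt19 at 1813 and 1399 against 3206 and 2599 CPM (log2 fold change 0.85, SE 0.16, adjusted p = 0.00262). The exception was Krt18, a keratin of simple epithelium, at 1815 and 2047 against 1468 and 1299 CPM (log2 fold change -0.48, SE 0.16, adjusted p = 0.0446). Among 36 junction genes, 11 were higher and 1 was lower, at a median log2 fold change of 0.15, and DESeq2 called 12 higher and 5 lower. The higher ones by edgeR became 5, 5 and 7 without WT replicate 2, KO-labelled replicate 1 and KO-labelled replicate 2. Desmosomal Dsc2 (148 and 67.4 against 323 and 299 CPM) and Dsp (690.0 and 424 against 948 and 1013 CPM) were among the higher ones, and tight junction Cldn1 (18.1 and 27.2 against 9.93 and 10.9 CPM) was the lower one. Krt18 did not pass the test without WT replicate 1, WT replicate 2, KO-labelled replicate 1 or KO-labelled replicate 2 (log2 fold change -0.58 to -0.39). Cldn1 did not pass the test without WT replicate 2, KO-labelled replicate 1 or KO-labelled replicate 2 (log2 fold change -1.18 to -0.8).

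Regulators of epithelial identity moved with these genes. In a list of 31 tested airway epithelial transcription factors that was drawn up after the values were seen, 15 were higher and 3 lower. Elf3, an epithelial ETS factor, stood at 146 and 114 against 355 and 299 CPM (log2 fold change 1.33, SE 0.14, adjusted p = 0.000105). Grhl2, which maintains epithelial junctions, stood at 106 and 86.2 against 159 and 171 CPM (log2 fold change 0.78, SE 0.1, adjusted p = 0.000323). The groups did not overlap in either gene. Sox2 (103 and 96.9 against 159 and 154 CPM) was higher too, and Nfib (495 and 557 against 291 and 348 CPM) was lower. Of 21 Notch pathway genes, 8 were higher (4 without WT replicate 2 and 5 without KO-labelled replicate 2) and 2 lower. The receptor Notch1 stood at 158 and 76.8 against 283 and 326 CPM (log2 fold change 1.37, SE 0.25, adjusted p = 0.00229) and its target Hey1 at 2.66 and 1.8 against 9.6 and 8.88 CPM (log2 fold change 2.04, SE 0.33, adjusted p = 0.00132). Notch1 in KO-labelled libraries was above all 4 naive female libraries, whereas Hey1 was far below them (42.1 and 31.4 CPM in naive WT).

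Among 28 airway ion and fluid transport genes, 11 were higher and 3 lower, and without WT replicate 2 these were 7 and 0. Aqp5, the apical water channel of secretory cells, stood at 180.1 and 124 CPM in WT and 1257 and 1066 CPM in KO-labelled libraries (log2 fold change 2.93, SE 0.28, adjusted p = 5.45e-05). The sodium channel subunits diverged, with Scnn1a at 149 and 79 against 225 and 227 CPM (log2 fold change 0.99) and Scnn1b at 8.95 and 9.85 against 4.76 and 3.47 CPM (log2 fold change -1.19). The chloride channel Ano1 was lower, at 313 and 273 against 182 and 199 CPM. Of 23 antimicrobial protein genes, 12 were higher (6 without WT replicate 2) and 3 lower. Ltf, the iron-binding lactoferrin, stood at 556 and 439 against 1249 and 1739.7 CPM (log2 fold change 1.59, SE 0.22, adjusted p = 0.000592), with naive WT at 7942 and 6092 CPM. The 3 lower members were Lcn2, the complement component C3 (251 and 339 against 107 and 120.2 CPM) and the protease inhibitor Slpi (60.3 and 103 against 18.4 and 12.7 CPM). In all 3 the WT libraries were above the naive WT libraries. Scnn1b did not pass the test without WT replicate 2 or KO-labelled replicate 2 (log2 fold change -1.12 to -0.97). Ano1 did not pass the test without WT replicate 1, WT replicate 2, KO-labelled replicate 1 or KO-labelled replicate 2 (log2 fold change -0.71 to -0.51).

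Interferon-stimulated genes were lower in KO-labelled libraries. Interferon-activated transcription factors bind an interferon response element in many of them, read here as GAAA, any 2 bases and GAAA again, on either strand. Among list members with a promoter in the RefSeq table (build GRCm38.p6), 18 of 30 interferon-stimulated genes and 6 of 23 antigen presentation genes (26.1%) held it between 250 bases before and 50 after the start, against 3.99% of 27025 genes. This motif and CATTCC on either strand, the TEAD motif in the Ankrd1 promoter, were chosen after the values were seen. TEAD factors act with YAP, and CATTCC was held by 8 of 18 YAP and TEAD target genes (44.4%) against 16.6% of all. The 200 bases before the start of 6 genes whose values follow are printed 5′ to 3′ on the gene's strand, with motif matches in capitals, to show where the match lies. A match describes the letters only.
Ifit3, chr19:34583329-34583528, plus strand: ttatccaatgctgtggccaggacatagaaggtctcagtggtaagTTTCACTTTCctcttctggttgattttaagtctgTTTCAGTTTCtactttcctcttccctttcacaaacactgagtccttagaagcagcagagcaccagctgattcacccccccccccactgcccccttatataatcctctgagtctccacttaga
Isg15, chr4:156200819-156201018, minus strand: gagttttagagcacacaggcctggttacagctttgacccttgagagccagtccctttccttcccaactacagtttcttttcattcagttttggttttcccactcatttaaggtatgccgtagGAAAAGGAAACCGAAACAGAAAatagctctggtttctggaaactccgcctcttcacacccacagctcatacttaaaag
Ifit1, chr19:34640689-34640888, plus strand: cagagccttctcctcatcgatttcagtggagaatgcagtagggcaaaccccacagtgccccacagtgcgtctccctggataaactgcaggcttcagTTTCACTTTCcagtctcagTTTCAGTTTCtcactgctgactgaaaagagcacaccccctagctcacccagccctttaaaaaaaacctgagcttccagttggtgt
Rsad2, chr12:26456453-26456652, minus strand: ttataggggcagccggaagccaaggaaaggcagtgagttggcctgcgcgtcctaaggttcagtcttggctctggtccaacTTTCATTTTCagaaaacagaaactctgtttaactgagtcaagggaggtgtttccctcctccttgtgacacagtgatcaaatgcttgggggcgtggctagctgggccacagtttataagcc
B2m, chr2:122147487-122147686, plus strand: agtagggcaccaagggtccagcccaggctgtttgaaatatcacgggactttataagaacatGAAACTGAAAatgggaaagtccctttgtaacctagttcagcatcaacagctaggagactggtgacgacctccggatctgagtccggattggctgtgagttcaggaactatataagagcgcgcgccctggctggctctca
Ankrd1, chr19:36119845-36120044, minus strand: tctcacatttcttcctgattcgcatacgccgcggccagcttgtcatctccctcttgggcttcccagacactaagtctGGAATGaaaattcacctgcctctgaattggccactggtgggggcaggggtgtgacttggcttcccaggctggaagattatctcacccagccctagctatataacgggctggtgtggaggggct

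Of 41 interferon-stimulated genes tested, 33 were lower and 2 higher, with a median log2 fold change of -1.57, beside 14.3% of all genes lower. Beside Ifit3, with 2 matches in the printed stretch, and Isg15, with 3 overlapping ones, Rsad2 (viperin) stood at 36.8 and 24.3 CPM in WT and 4.8 and 5.05 CPM in KO-labelled libraries (log2 fold change -2.63, SE 0.64, adjusted p = 0.0105). Gbp2, an interferon-induced GTPase, stood at 34.8 and 31.1 against 10.9 and 8.74 CPM (log2 fold change -1.75, SE 0.17, adjusted p = 6.78e-05). Bst2, which tethers budding virus, stood at 91.6 and 61.5 against 21.7 and 19.5 CPM (log2 fold change -1.89, SE 0.24, adjusted p = 0.000301). In all 3 both KO-labelled libraries lay below the higher naive WT library, with naive WT at 7.74 and 6.83 CPM for Rsad2, 11.6 and 10.7 CPM for Gbp2 and 23.2 and 26.7 CPM for Bst2. Ifit1 differed less, at 43.9 and 33.2 against 19.7 and 16.3 CPM (log2 fold change -1.1, SE 0.28, adjusted p = 0.0121). The regulators moved in the same direction, with the transcription factor Irf7 at 42.8 and 28.1 against 10.0 and 11 CPM and the RNA sensor Ddx58 (RIG-I) at 118 and 89.2 against 53.9 and 55 CPM. Ifit3 and Ifit3b are near-copies and may share reads. Rsad2 did not pass the test without KO-labelled replicate 1 or KO-labelled replicate 2 (log2 fold change -2.66 to -2.61). Ifit1 did not pass the test without WT replicate 1 or KO-labelled replicate 2 (log2 fold change -0.96 to -0.88).

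A pair of members went the other way. Ifitm1, a membrane protein that blocks virus entry, stood at 4.83 and 6.82 CPM in WT, 85 and 63.5 CPM in KO-labelled and 205 and 191 CPM in naive WT libraries (log2 fold change 3.68, SE 0.31, adjusted p = 2.7e-05). Mx1, an antiviral GTPase, stood at 2.95 and 2.7 against 10.4 and 9.38 CPM (log2 fold change 1.8, SE 0.23, adjusted p = 0.000316), with naive WT at 9.66 and 10.1 CPM. Both were lowest in the WT HDM pair, the pattern of the basal and club markers. Without WT replicate 2, 30 interferon-stimulated genes were lower and 2 higher, so the count moved little with that library. The lower ones numbered 25 without KO-labelled replicate 2 and 28 without WT replicate 1 or KO-labelled replicate 1. The list's sum was 2539 and 2026 CPM in WT and 1415 and 1239.6 CPM in KO-labelled libraries, and 1421 and 1453 CPM in naive WT.

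**Figure D3:**
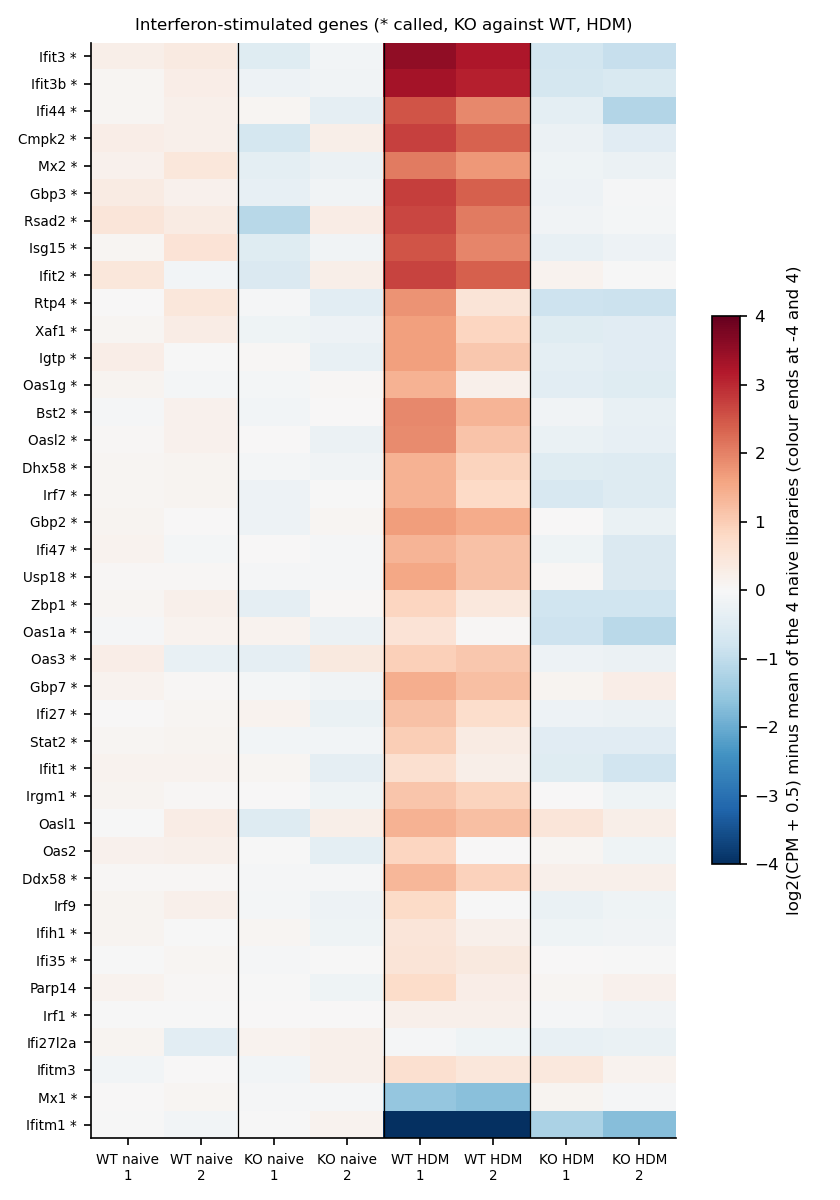
Interferon-stimulated genes in the 8 female libraries (columns), as log2(CPM + 0.5) minus the mean of the 4 naive female libraries, with colours from blue (lower) to red (higher) and an asterisk on genes called between KO-labelled and WT under HDM. Most of the 40 rows drawn were raised in both WT HDM libraries, and Ifitm1 and Mx1 at the foot were lowered there.

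Antigen presentation genes were lower or not called, with 17 of 30 lower and 0 higher. B2m, the light chain of MHC class I, stood at 365 and 369 CPM in WT and 178 and 157 CPM in KO-labelled libraries (log2 fold change -1.13, SE 0.09, adjusted p = 1.38e-05). Tapbp, the tapasin that loads peptide onto class I, stood at 593 and 549.7 against 326 and 319 CPM (log2 fold change -0.83, SE 0.07, adjusted p = 2.19e-05). The class I heavy chain H2-K1 stood at 599 and 598 against 360.1 and 347 CPM and H2-D1 at 652 and 655 against 411 and 389 CPM, and these similar genes may share reads. Replicates of each group lay close together in all 4 genes. Psmb8, an immunoproteasome subunit, stood at 26.6 and 22.2 against 12 and 10.9 CPM. Without WT replicate 2 the same count of 17 were lower. This count became 13 without KO-labelled replicate 2. It was 14 without WT replicate 1, without KO-labelled replicate 1 and under the scaling on shared epithelial genes.

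Sensors and secreted immune signals were called in both directions, in shares near the 29.2% of all genes. These shares were 30.8% of pattern and protease receptors, 30.4% of inflammatory cytokines, 28% of chemokines and 33.3% of NF-kB genes. Counts in these lists were at most 5 in each direction, and without WT replicate 2, KO-labelled replicate 1 or KO-labelled replicate 2 the lower NF-kB genes numbered 0, 2 and 1. Of 26 pattern and protease receptors, 3 were higher and 5 lower. Tlr3, the receptor for double-stranded RNA, stood at 179.8 and 164 CPM in WT and 58 and 63.1 CPM in KO-labelled libraries (log2 fold change -1.5, SE 0.16, adjusted p = 9.47e-05), with naive WT at 24.7 and 25.9 CPM. The endotoxin receptor Tlr4 was higher, at 16.6 and 12.3 against 22.2 and 22.5 CPM. Of 23 inflammatory cytokine genes, 3 were higher and 4 lower. Il33, an alarmin of basal cells linked to allergic responses, stood at 16.8 and 20.1 against 86.4 and 57.1 CPM (log2 fold change 1.96, SE 0.46, adjusted p = 0.0094), and the naive female libraries spanned 29.7 to 96.5 CPM. Csf1, the macrophage growth factor, stood at 214 and 296 against 66.3 and 72.2 CPM (log2 fold change -1.88, SE 0.23, adjusted p = 0.000253). Of 25 chemokine genes, 2 were higher and 5 lower. The interferon-induced Cxcl10 stood at 40.9 and 39.8 against 5.81 and 5.69 CPM (log2 fold change -2.81, SE 0.71, adjusted p = 0.0128). Among 21 NF-kB genes, 2 were higher and 5 lower. The feedback inhibitors Nfkbia (75 and 81.6 against 52.6 and 53 CPM) and Tnfaip3 (142 and 176 against 59.3 and 66.1 CPM) were lower, and the subunit Rel (15.9 and 14.3 against 21.5 and 27.6 CPM) was higher. Tlr4 and Nfkbia did not pass the test without WT replicate 2 (log2 fold change 0.43 and -0.51). Il33 did not pass the test without WT replicate 2 or KO-labelled replicate 1 (log2 fold change 1.62 to 2.1). Cxcl10 and Tnfaip3 did not pass the test without WT replicate 2, KO-labelled replicate 1 or KO-labelled replicate 2 (log2 fold change -2.84 to -2.79 and -1.42 to -1.18).

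Extracellular matrix and adhesion genes were lower in KO-labelled cultures. Of 33 collagens and collagen-modifying enzymes, 13 were lower and 2 higher (median log2 fold change -1.64), which became 6 and 0 without WT replicate 2, with 8 lower without KO-labelled replicate 1 and 6 without KO-labelled replicate 2. Of 34 laminins, integrins and adhesion proteins, 15 were lower and 2 higher, and 9 were lower without WT replicate 2 or without KO-labelled replicate 2. Fn1, fibronectin, stood at 3634 and 6234 CPM in WT and 1087 and 1055 CPM in KO-labelled libraries (log2 fold change -2.2, SE 0.35, adjusted p = 0.00116). Hspg2, the basement membrane proteoglycan perlecan, stood at 750.4 and 734 against 196 and 242 CPM (log2 fold change -1.76, SE 0.21, adjusted p = 0.000247). Itgb5, an integrin subunit that binds vitronectin, stood at 437 and 597 against 246 and 215 CPM (log2 fold change -1.16, SE 0.13, adjusted p = 0.000121). Hspg2 was as high in WT replicate 1 as in replicate 2, while Fn1 was higher in replicate 2. Lama1 was an exception, at 1.66 and 2.65 against 11.1 and 9.38 CPM (log2 fold change 2.25, SE 0.4, adjusted p = 0.00227). Of 33 matrix proteases and inhibitors, 9 were lower and 2 higher, among them the inhibitor Timp2 at 1288 and 1495 against 761 and 741 CPM and the membrane protease Mmp14 at 889.6 and 945 against 547 and 559.5 CPM.

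TGF-beta pathway genes and YAP targets were lower in the same direction. Of 28 TGF-beta ligands, receptors and targets, 12 were lower (7 without KO-labelled replicate 2) and 3 higher. Ltbp3, which stores latent TGF-beta, stood at 594 and 642 against 279.7 and 278 CPM (log2 fold change -1.15, SE 0.08, adjusted p = 7.3e-06), and the feedback inhibitor Smad7 at 52.2 and 65 against 29.3 and 30.4 CPM (log2 fold change -0.97, SE 0.13, adjusted p = 0.000408). Naive WT stood at 223 and 216 CPM for Ltbp3 and 20.2 and 21.4 CPM for Smad7, so the KO-labelled libraries lay between naive and WT HDM. In a list of 23 tested YAP and TEAD targets, also drawn up after the values were seen, 8 were lower and 1 was higher. Ankrd1, whose promoter holds the TEAD letters, stood at 63.5 and 122 against 18.8 and 17.8 CPM (log2 fold change -2.34, SE 0.36, adjusted p = 0.00105), and Ccn2, a matricellular protein that TGF-beta and YAP both induce, at 730.5 and 1147 against 204 and 174 CPM (log2 fold change -2.31, SE 0.33, adjusted p = 0.000631). The receptor kinase Axl stood at 179 and 209 against 71.7 and 74.9 CPM (log2 fold change -1.4, SE 0.12, adjusted p = 2.9e-05). Of 22 mesenchymal transition genes, 9 were lower and 4 higher. The higher ones were Grhl2, Esrp1, Esrp2 and Ovol1, which maintain the epithelial state. Ovol1 did not pass the test without WT replicate 2, KO-labelled replicate 1 or KO-labelled replicate 2 (log2 fold change 0.59 to 1.24). Esrp1 did not pass it without WT replicate 2 (log2 fold change 0.34). Cdh2, N-cadherin, stood at 19.4 and 35.8 against 4.72 and 2.86 CPM (log2 fold change -2.86, SE 0.35, adjusted p = 0.000259), and Epcam, an adhesion molecule of epithelium, was also lower at 556 and 631 against 392 and 356 CPM. Without WT replicate 2, 2 of these genes were lower and 2 higher, and 4 and 2 were lower without KO-labelled replicates 1 and 2.

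p53 target genes were lower, with 13 of 25 lower (8 without WT replicate 2) and 1 higher. Bax, a trigger of apoptosis, stood at 329.7 and 376 CPM in WT and 213 and 199 CPM in KO-labelled libraries (log2 fold change -0.77, SE 0.13, adjusted p = 0.00138). Mdm2, the p53 ligase, stood at 264 and 338 against 182 and 178 CPM (log2 fold change -0.74, SE 0.14, adjusted p = 0.00309), and Cdkn1a, the cell cycle inhibitor p21, at 907 and 1131 against 643 and 647 CPM (log2 fold change -0.66, SE 0.14, adjusted p = 0.00504). In these 3 genes the KO-labelled libraries lay between the WT HDM and the naive WT libraries, which held 419 and 466 CPM of Cdkn1a. The exception was Sesn1, a stress-induced regulator of growth signalling, at 20.7 and 15.3 against 31.6 and 30.5 CPM. Of 43 mitosis and DNA replication genes, 4 were higher and 0 lower, and this count became 8 by DESeq2, 14 without WT replicate 1, 0 without any other of the 4 libraries and 18 under the scaling on shared epithelial genes. Cdkn1a did not pass the test without WT replicate 2 (log2 fold change -0.49).

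Genes of the secretory route in which LMAN1 acts were lower by small amounts. Of 50 cargo receptor, COPII and COPI genes, 23 were lower and 3 higher, at a median log2 fold change of -0.23. Sec24d, a COPII coat subunit that picks cargo, stood at 72 and 82.9 CPM in WT and 50.8 and 52.5 CPM in KO-labelled libraries (log2 fold change -0.59, SE 0.08, adjusted p = 0.000355). Surf4, a cargo receptor for soluble proteins, stood at 288 and 323 against 239 and 224 CPM (log2 fold change -0.4, SE 0.08, adjusted p = 0.00369). The coat subunits Sec24b (94.6 and 88.4 against 129 and 134 CPM) and Copg2 (94.1 and 83.7 against 120.2 and 120.2 CPM) were higher. Of 37 unfolded protein response and folding genes, 14 were lower and 3 higher. The chaperones Hsp90b1 (897 and 906 against 644 and 595 CPM) and Canx (843 and 897 against 628 and 580.1 CPM) were lower, and Herpud1, of the degradation machinery, was higher at 62.9 and 55.6 against 96.2 and 89.5 CPM. Without WT replicate 2, and again without KO-labelled replicate 2, 9 of the cargo and coat genes and 4 of the folding genes were lower. Under the scaling on shared epithelial genes, 11 cargo and coat genes (median log2 fold change -0.14) and 7 folding genes were lower. Of 17 tested genes for LMAN1 cargo and coagulation proteins, 8 were lower and 0 higher, and leaving out 1 library gave 3 to 5 lower. Ctsz, a lysosomal cathepsin, stood at 212 and 258 against 119 and 121 CPM (log2 fold change -0.97, SE 0.09, adjusted p = 3.75e-05), and F3, tissue factor, at 274 and 294 against 220.3 and 215 CPM (log2 fold change -0.38, SE 0.13, adjusted p = 0.0387). F3 was lower in all 4 of these libraries than in naive WT (457 and 425 CPM), unlike Ctsz. Hsp90b1 did not pass the test without WT replicate 2 or KO-labelled replicate 2 (log2 fold change -0.53 to -0.48). F3 did not pass the test without WT replicate 1, WT replicate 2, KO-labelled replicate 1 or KO-labelled replicate 2 (log2 fold change -0.43 to -0.33).

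Other lists lay nearer the background of 14.9% higher and 14.3% lower, apart from the mitochondrially encoded subunits (46.2% called, median log2 fold change -0.79). The Wnt list held 6 higher and 8 lower genes of 39 (3 and 4 without WT replicate 2), the EGF receptor list 4 and 2 of 20, the AP-1 list 2 and 3 of 25, and the steroid list 4 and 3 of 25. The AP-1 list held 0 calls without WT replicate 2 or either KO-labelled replicate and 3 higher and 6 lower by DESeq2, and the steroid list became 2 and 1 without WT replicate 2 and 2 and 0 without KO-labelled replicate 2. The EGF receptor list became 2 and 0 without WT replicate 2 and 2 and 1 without KO-labelled replicate 2. Wnt4 (135 and 123 against 273 and 233 CPM) was higher and Wnt5a (188 and 184 against 73.3 and 82.8 CPM) lower. The glycolysis list held 5 higher and 2 lower genes of 33, the prostaglandin list 2 and 0 of 22, and the cholesterol list 1 and 2 of 36. Nuclear genes for oxidative phosphorylation held 4 higher and 10 lower of 68 (0 lower without WT replicate 2 or KO-labelled replicate 2 and under the scaling on shared epithelial genes), and genes of dynein assembly and cilium transport 7 and 2 of 37 (1 higher without WT replicate 2 and 3 without KO-labelled replicate 2). The mitochondrially encoded subunits held 0 higher and 6 lower of 13, but 0 lower without WT replicate 2 or KO-labelled replicate 1, 1 lower without KO-labelled replicate 2 and 1 lower under the scaling on shared epithelial genes.

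**Figure D4:**
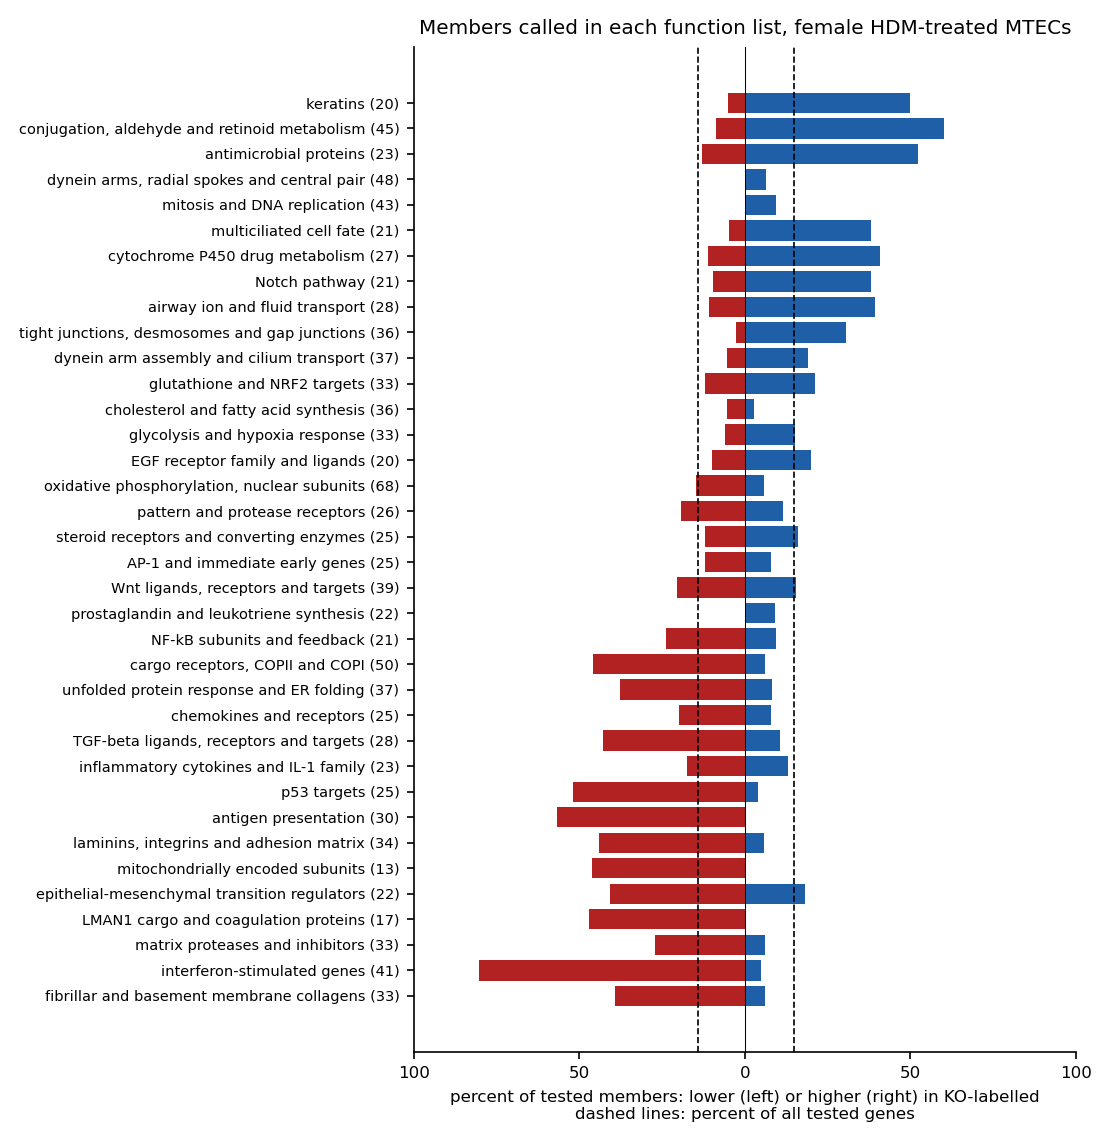
Share of the tested members of 36 function lists called lower (left, red) or higher (right, blue) in KO-labelled against WT female HDM-treated MTECs, in percent, with the number tested in brackets and the lists ordered by their median log2 fold change. Dashed lines mark the shares over all genes, 14.3% lower and 14.9% higher, and the interferon list extends furthest to the left.

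Cell type content was then set beside these functions. Fibroblast markers, of cells that can be carried over from the tracheal wall, summed to 100.3 and 684 CPM in WT and 125 and 113 CPM in KO-labelled libraries. In naive female cultures the sums were 68.7 and 654 CPM in WT and 161 and 151 CPM in KO. Replicate 2 was therefore high in both female WT groups, and WT HDM replicate 1 lay near the KO-labelled pair. Of 13 fibroblast markers tested, 5 were lower and 1 was higher, and by edgeR 0 were lower without WT replicate 2 or KO-labelled replicate 2 and 1 without KO-labelled replicate 1. Col3a1, a fibrillar collagen, stood at 17.1 and 290.5 against 13.9 and 16.5 CPM (adjusted p = 0.208), and Dcn, the proteoglycan decorin, at 2.25 and 45.9 against 1.69 and 0.788 CPM (log2 fold change -4.28, SE 1.22, adjusted p = 0.0224). Of 8 smooth muscle and myofibroblast markers, 3 were lower and 0 higher, and 0 without WT replicate 2 or either KO-labelled replicate. Acta2, smooth muscle actin, stood at 272 and 441 against 129 and 90.0 CPM (adjusted p = 0.151). Acta2 was above the KO-labelled pair in both WT libraries. Myocd, of the smooth muscle list, and Tcf21, of the fibroblast list, were at 0 in all 4. Each was the only member of its list with no count in these libraries. Dcn did not pass the test without WT replicate 2, KO-labelled replicate 1 or KO-labelled replicate 2 (log2 fold change -4.94 to -0.86).

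Basal and club markers were low in both WT replicates. WT replicate 1, with a fibroblast marker sum near that of the KO-labelled pair, held 31.2 CPM of Aqp3, 42.3 CPM of Aldh1a1 and 179 CPM of Krt15. Without WT replicate 2, the basal list held 9 higher and 0 lower genes, the club list 6 and 0, and the conjugation list 17 and 1. The p53 list then held 8 lower and the antimicrobial list 6 higher genes. In that setting the median log2 fold change of the fibroblast list went from -2.06 to -0.24. That of the smooth muscle list went from -1.92 to -1.44, and that of the mitochondrially encoded list from -0.79 to -0.62. In naive WT cultures, where fibroblast markers were high in replicate 2 alone, basal markers summed to 12517 and 13817 CPM and Fn1 stood at 536 and 1045 CPM in replicates 1 and 2. Fn1 under HDM stood at 3634 and 6234 CPM in WT, above both naive WT libraries in either replicate. Genes shared across airway epithelial cell types, a list chosen after the values were seen, summed to 21593 and 20310.3 CPM in WT and 20707 and 19273 CPM in KO-labelled libraries. These sums differed little beside those of the basal and club lists, but 9 of 30 members were higher and 5 lower. A sum can hide such opposite changes, and whether epithelial content was equal was not tested.

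**Figure D5:**
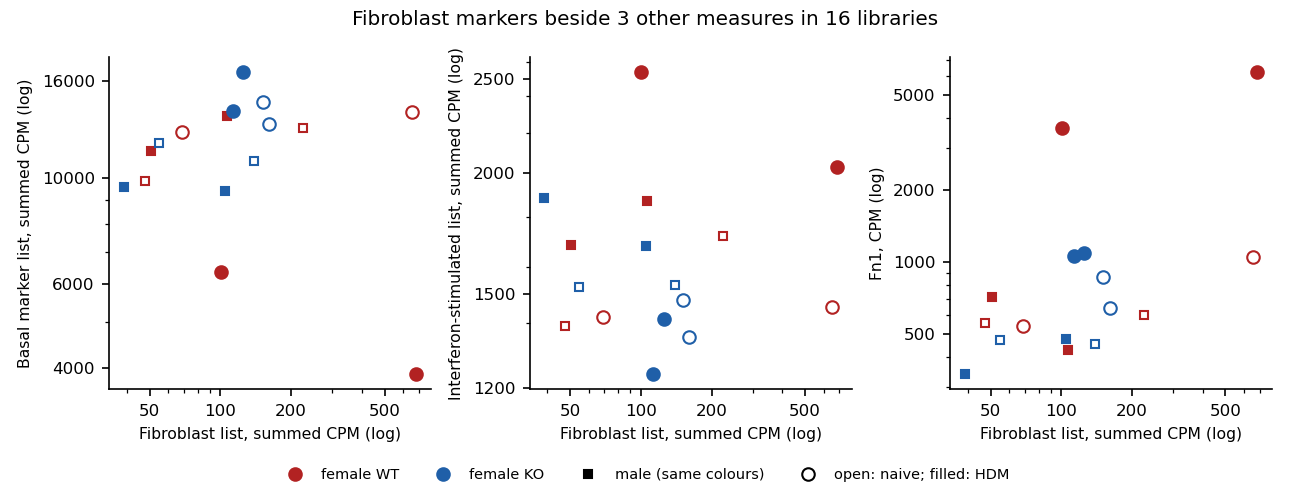
Summed CPM of the fibroblast marker list (x axis, log) beside the summed basal marker list, the summed interferon-stimulated list and Fn1 (y axes, CPM, log) in the 16 libraries (circles female, squares male, open naive, filled HDM, red WT, blue KO-labelled). The 2 female WT HDM libraries lay lowest for basal markers and highest for the other 2 measures, at fibroblast sums of 100.3 and 684 CPM.

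Macrophage and dendritic cell markers summed to 169 and 169 CPM in WT and 261 and 312 CPM in KO-labelled libraries, and 2 of 13 were higher. Lyz2, a lysozyme of macrophages and secretory cells, stood at 67.3 and 62.2 against 118 and 168 CPM (log2 fold change 1.15, SE 0.17, adjusted p = 0.00091), and the macrophage receptor Csf1r at 15.1 and 13.9 against 21.9 and 22.6 CPM (adjusted p = 0.0585). Among female libraries, the interferon-stimulated sum was highest in the WT HDM pair, where these markers were lowest. Of the remaining lists, tuft cells held 2 higher and 1 lower of 7 tested, neuroendocrine cells 1 and 1 of 5, ionocytes 1 and 0 of 8, squamous cells 5 and 1 of 14, chondrocytes 0 and 1 of 4, and endothelial cells and lymphocytes 0 of 4 each (0 and 0 at an unadjusted p under 0.05). The part that cell numbers play in the function lists was not tested.

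The genotype contrast was read in the other cultures as well. In naive female cultures, 0 of 15993 genes were called by edgeR (0%), with 203 at an unadjusted p under 0.05 and 1 call by DESeq2, so each list held 0 calls. Lman1 was among the genes that edgeR did not call, although both naive KO values lay far below both naive WT values. A lack of edgeR calls there does not show that the genotypes had equal expression. In male HDM-treated cultures 0 genes were called by edgeR (0%), with 2897 at an unadjusted p under 0.05 and 538 by DESeq2. The difference itself was tested as an interaction. Between HDM and naive female cultures, 1798 genes (11.2%) were called, 985 (6.16%) upward and 813 (5.08%) downward. Between female and male HDM-treated cultures, 2119 genes (13.2%) were called, 1221 (7.63%) upward and 898 (5.61%) downward. These contrasts share the female HDM-treated libraries with the main comparison and are not independent of it.

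The members named above had their own values in these contrasts. The log2 difference of Aqp3 was 0.21 in naive female, 4.63 in HDM-treated female and -0.35 in HDM-treated male cultures, and its interaction between HDM and naive female cultures passed the test (adjusted p = 7.62e-06). Ifit3 gave -0.62, -4.37 and 1.18 in the same order (adjusted p = 0.00439 for that interaction), with male HDM-treated libraries at 7.62 and 4.97 CPM in WT and 10.9 and 17.5 CPM in KO-labelled cultures. B2m gave 0.12, -1.13 and -0.04 (adjusted p = 0.000237), and Fn1 gave -0.08, -2.2 and -0.49 (adjusted p = 0.0192). Nid1 gave -0.96, -3.35 and 0.84, and its interaction did not pass (adjusted p = 0.203). In the lists, the interaction with HDM was called for 20 interferon-stimulated genes downward and 2 upward, of 41 tested. Of 30 antigen presentation genes, 12 were called downward and 0 upward. Conjugation enzymes gave 17 upward and 1 downward of 45, and basal markers 9 upward and 0 downward of 14. Over all genes tested these shares were 6.16% upward and 5.08% downward.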

How the data were processed

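RNA-seq libraries were made by the authors from mRNA of primary tracheal epithelial cultures. Per the labels, the submitters' processing notes name Trimmomatic 0.36, STAR 2.5.2b, Subread 1.5.2 with featureCounts, DESeq2 and GRCm38. The strand setting and annotation release are not given in the sources used here. The deposited values are raw counts per gene, not normalized by the authors, for 49315 genes in 16 libraries (21860698 to 43442188 counts each), and 1 CPM was 21.1 to 44.5 counts. Counting error only is covered by the floor of 3 counts.

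Gene symbols and positions came from GENCODE M21 (GRCm38). Genes kept by filterByExpr were tested with edgeR 4.0.16 (R 4.3.3) under a quasi-likelihood model of 8 group means over all libraries, with TMM scaling, two-sided tests and Benjamini-Hochberg adjustment over 15993 genes. Genes were called at an adjusted p under 0.05. The other 12 libraries entered to estimate dispersion and to give the contrasts set beside the main one. Alternatives were DESeq2 1.42.0, other scalings and filters, the compared libraries alone, a replicate block, thinning and each library left out. Named genes were Lman1 and Mcfd2, the 10 called genes of widest change in each direction, if their log2 CPM averaged 3 or more and the groups did not overlap, and for each list its first 3 members and the 4 with the smallest p. Other genes in the text, and 4 lists named as such, were chosen after their values were seen. All members and lists were chosen with earlier results of these data known. The test was tried on simulated data for this comparison (15486 genes). It called 73 of 100 genes changed 2-fold, 89 of 100 changed 4-fold and 5 of 15286 unchanged ones. Changes were planted only in genes above a minimum mean count, groups otherwise shared their means, and replicates were drawn from the fitted dispersion. No outlying replicate was built in, so the share of false calls need not hold for these libraries. A few genes are not reported here by name, though list counts include them.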

Additional observations from a re-analysis of the deposited data

Results flagged for a closer look

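The genotype difference changed with treatment or sex in the values below, by a test of the interaction itself. Between HDM-treated and naive female cultures, 1798 genes differed in it, and between female and male HDM-treated cultures 2119 did. Both counts moved when 1 library was left out, as given below. Lman1 differed by 2.67 on the log2 scale between HDM and naive female cultures, since its transcript was 66.6 and 78.1 CPM in the HDM-treated KO-labelled libraries and 12.8 CPM in both naive KO libraries. The cause was not tested. Mcfd2 differed by -0.46 against naive female and by -0.69 against male HDM-treated cultures.

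Over all genes the share was 11.2% against naive female and 13.2% against male HDM-treated cultures, and lists are given where at least 10 members were called, which favours long lists. Against naive female cultures, these were cytochrome P450 (11 of 27 tested), conjugation (18 of 45 tested), laminins and integrins (10 of 34 tested), antimicrobial proteins (11 of 23 tested), interferon-stimulated genes (22 of 41 tested), antigen presentation (12 of 30 tested), cargo receptors and coats (12 of 50 tested), p53 targets (10 of 25 tested) and epithelial transcription factors (14 of 31 tested). Against male HDM-treated cultures they were cytochrome P450 (11 of 27 tested), conjugation (24 of 45 tested), glutathione and NRF2 (11 of 33 tested), keratins (10 of 20 tested), junctions (11 of 36 tested), antimicrobial proteins (10 of 23 tested), interferon-stimulated genes (37 of 41 tested), antigen presentation (16 of 30 tested), cargo receptors and coats (14 of 50 tested), ion transport (10 of 28 tested), mitosis (10 of 43 tested) and epithelial transcription factors (10 of 31 tested). These contrasts share the female HDM-treated libraries.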

How the results depend on the processing

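The main count of 4669 genes became 1415 with a 2-fold minimum, and 1701 to 4568 when 1 library was left out (1701 without WT replicate 2, 2077 without KO-labelled replicate 2). Other settings gave 3627 to 5149, with 4767 by DESeq2, and no called gene reversed in any. Of 128 genes named, leaving out 1 library kept 453 of 512 values on their side of the threshold, and the other settings kept 1117 of 1145, with no sign turned. Aldh2, Krt18, F3 and Ano1 lost their calls under the scaling on shared epithelial genes, which was chosen after seeing the data. With the replicate block the count was 4317, and Dcn, Krt18, Ltbp2 and F3 lost their calls. Same-numbered female libraries deviated with a correlation of -0.0559 between WT and KO-labelled HDM, 0.124 between naive WT and KO, 0.286 between naive and HDM-treated WT and -0.0511 between naive and HDM-treated KO cultures. With 2 pairs and no label tying the numbers to a batch, the pairing was treated as a shared number only. The 0 calls in naive females became 1 by DESeq2, 135 without a filter and 1 with the compared libraries alone. The 0 calls in HDM-treated males became 538, 1896 and 1. The interaction with HDM (1798 genes) gave 1358 with the block, 3029 without a filter, 760 with a 2-fold minimum and 496 to 2383 when 1 library was left out (496 without naive female KO replicate 2, 517 without naive female WT replicate 1, 589 and 601 without replicate 2 of female HDM-treated WT and KO-labelled cultures). The interaction with sex (2119) gave 1620, 3428, 965 and 689 to 2781 (689 without male HDM-treated KO replicate 1, 807 without female HDM-treated WT replicate 2). The cause was not tested. Depth limits genes near 3 counts per library, and 2 cultures per group limit the rest.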
